A study of Homo sapiens with 12 samples.

Results

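The genes described here encode 3 groups of proteins that choose splice sites or control those that do: 12 SR proteins (SRSF1 to SRSF12), 20 heterogeneous nuclear ribonucleoproteins (hnRNPs, with symbols that begin with HNRNP) and the 4 CDC2-like kinases CLK1 to CLK4. They were taken by gene symbol, as 36 of the 34694 symbols listed in either of the deposited tables. A row was present for 36 of them in KYSE150 and for 35 in KYSE410, where SRSF12 was not analysed. In each line 35 had a mean of at least 1 FPKM (fragments per kilobase of transcript, relative to the size of the library) and were tested. SRSF12 in KYSE150 had 0, 0 and 0.00546 FPKM in hypoxia and 0 FPKM in all 3 normoxic libraries.

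SR proteins bind exonic enhancers through RNA recognition motifs and recruit the spliceosome through a domain rich in arginine and serine, while many hnRNPs bind silencers and oppose them. CLK kinases are nuclear, dual-specificity kinases that phosphorylate the arginine-serine domain, release SR proteins from nuclear speckles and so set how much SR protein is available to pre-mRNA. Many genes of both protein families limit their own expression by splicing a poison exon into their transcripts, which are then removed by nonsense-mediated decay.

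KYSE410 and KYSE150 are established human esophageal squamous carcinoma lines, labelled wild type, and messenger RNA was sequenced from both to describe their response to low oxygen. The 4 groups were hypoxic KYSE410 (0.5% oxygen, 48 h), normoxic KYSE410 (21% oxygen), hypoxic KYSE150 (0.5% oxygen, 48 h) and normoxic KYSE150 (21% oxygen), with 3 libraries in each. The labels give normoxia a time of 0 h, whereas the series text states 48 h at either oxygen level. No label says that replicates were separate cultures, and p-values then reflect only the variation among these libraries, which may be technical.

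Library depth is unknown, since the tables hold FPKM only; between 22787 and 24667 genes were above 0 in each library. KYSE150 normoxia replicate 2 stood apart, with an SD of 0.339 and 0.369 for its log2 differences from the other KYSE150 normoxic libraries, against 0.153 to 0.197 for the other same-group pairs. In KYSE410 the sample-sheet numbers in the labels were 56 to 58 in hypoxia and 38 to 40 in normoxia, so oxygen cannot be told apart from a library set. All 9 hypoxia genes tested in KYSE410 and all 10 tested in KYSE150 rose, led by NDRG1 (log2 change 6.14) in KYSE410 and ANKRD37 (3.94) in KYSE150. Of 10 squamous or epithelial markers, 9 had at least 1 FPKM in KYSE410, where they summed to 2203 to 2250 FPKM in hypoxia and 2203 to 2332 FPKM in normoxia. The like sums hide changes, since 5 of the 9 rose and 4 fell; KRT17 had 538.9 ± 5.59 FPKM in hypoxic KYSE410 and 69.4 ± 2.76 FPKM in normoxic KYSE410, and KRT14 rose by 2.18. In KYSE150 only 4 did; KRT5, KRT14, KRT6A, TP63, SOX2 and CDH1 were under 1 FPKM, and the sum was 1084 to 1134 FPKM in hypoxia and 745 to 966 FPKM in normoxia. Of the fibroblast, endothelial and leukocyte markers, CD68 alone reached 1 FPKM in KYSE410, with a list sum of 81.4 to 86.4 FPKM in hypoxia and 31.0 to 33.7 FPKM in normoxia. CD68 and COL1A1 did in KYSE150, where the sum was 31.9 to 35.7 FPKM in hypoxia and 22.0 to 23.8 FPKM in normoxia, and PTPRC was at 0 in hypoxic KYSE410 and normoxic KYSE150. The part of these markers in the results below was not tested.

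Each gene was compared between hypoxia and normoxia within its line with limma on log2(FPKM + 1), over every gene that averaged 1 FPKM or more. A gene was called where its p, adjusted by Benjamini-Hochberg over those genes, was under 0.05. Log2 changes are on this scale, hypoxia minus normoxia. In KYSE410, 11 of the 35 tested members rose and 20 fell. Most of the transcriptome moved too, as 31.2% of the 12054 genes tested were called higher and 51.9% lower, 83.1% in all. In KYSE150, 13 members rose and 14 fell, against 23.5% of the 12692 genes tested called higher and 38.8% lower, 62.3% in all. Called changes of at least 1 on the log2 scale were found for 3 members upward and 4 downward in KYSE410 (6.29% and 15.3% of all genes tested). In KYSE150 they were found for 4 members upward and 5 downward (4.49% and 7.72%). Hypoxic and normoxic libraries did not overlap for 12 members that were higher and 20 that were lower in KYSE410 (31.9% and 52.7% of all genes). In KYSE150 these numbered 15 and 18 (27.0% and 42.6%). The 3 groups of genes differed among themselves. The CLK genes had a median log2 change of 0.99 in KYSE410 and 1.17 in KYSE150, the SR protein genes -0.39 and -0.72, and the hnRNP genes -0.16 and -0.026. All tested genes had a median of -0.21 in KYSE410 and -0.13 in KYSE150. Relative to those medians, the CLK genes stood at 1.20 and 1.30, the SR protein genes at -0.18 and -0.59, and the hnRNP genes at 0.055 and 0.11. In these bulk libraries a change in the number of cells of a kind and a change in RNA per cell cannot be told apart.

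**Figure D1:**
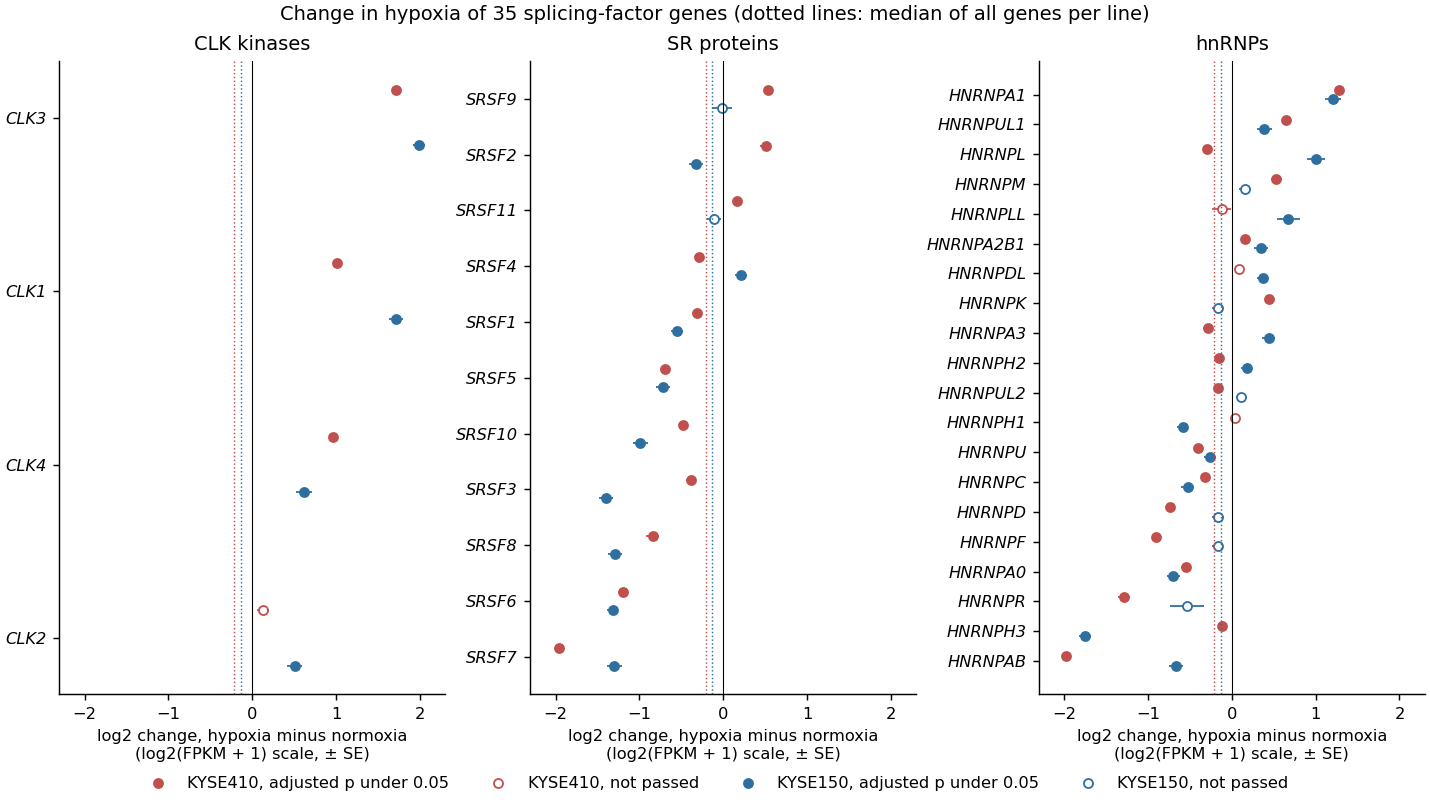
Log2 change (hypoxia minus normoxia, on log2(FPKM + 1), with its SE) of each tested member in KYSE410 and KYSE150, by group. The CLK genes lie at or above 0.13, the SR protein genes mostly below 0, and the hnRNP genes spread to both sides.

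All 4 CLK genes rose in hypoxic KYSE150 and 3 of 4 rose in hypoxic KYSE410, and no CLK gene fell in either line. Over all genes tested, 23.5% were higher and 38.8% lower in KYSE150, and 31.2% and 51.9% in KYSE410. CLK3 changed most of the 4 in both lines. It had 49.6, 50.6 and 51.2 FPKM in hypoxic KYSE410, against 14.05, 15.6 and 14.2 FPKM in normoxic KYSE410, a ratio of means of 3.45 (log2 change 1.72 ± 0.05 SE; limma, adjusted p = 1.11e-08). In KYSE150 it had 55.96, 57.9 and 57.8 FPKM in hypoxia and 13.4, 13.2 and 14.3 FPKM in normoxia, a ratio of 4.19 (1.99 ± 0.07; limma, adjusted p = 7.62e-07). Every hypoxic library thus lay far above every normoxic one, and the normoxic levels of the lines were near each other. CLK3 overlaps EDC3, AC100835.1 and AC100835.2 on the opposite strand, and whether counting used strand is not given in the sources used here. CLK1, the best studied member, is known for transcripts that keep introns and stay in the nucleus until they are spliced. CLK1 had 40.7, 42.1 and 38.9 FPKM in hypoxic KYSE410 and 19.3, 20.5 and 19.2 FPKM in normoxic KYSE410 (1.01 ± 0.04; limma, adjusted p = 1.37e-07). Its hypoxic levels in KYSE150 were much the same, at 37.9, 42.5 and 40.2 FPKM, against lower normoxic levels of 11.2, 10.8 and 12.5 FPKM (1.72 ± 0.08; limma, adjusted p = 2.90e-06). The KYSE410 change was smaller than the KYSE150 change by 0.71 ± 0.09 on the log2 scale, as tested by the interaction of line and oxygen (limma, adjusted p = 3.83e-05).

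CLK4, the closest paralogue of CLK1, had 17.8, 18.4 and 18.5 FPKM in hypoxic KYSE410, against 8.60, 9.38 and 8.61 FPKM in normoxic KYSE410 (0.96 ± 0.05; limma, adjusted p = 2.56e-07). Its level in KYSE150 was lower, at 5.26, 5.76 and 4.75 FPKM in hypoxia and 3.07, 2.81 and 3.34 FPKM in normoxia (0.62 ± 0.10; limma, adjusted p = 9.02e-04). The groups did not overlap in either line. CLK2 differed least of the 4. In hypoxic KYSE410 it had 9.27, 8.14 and 8.46 FPKM, against 7.34, 8.47 and 7.59 FPKM in normoxic KYSE410, with overlapping groups (0.13 ± 0.07; limma, adjusted p = 0.107). CLK2 rose in KYSE150, where the groups did not overlap, with 15.8, 13.95 and 13.5 FPKM in hypoxia and 9.86, 10.6 and 9.02 FPKM in normoxia (0.51 ± 0.09; limma, adjusted p = 0.00186). Under median-of-ratios scaling CLK2 in KYSE410 was also called higher, and scaling to a common sum turned its direction to -0.088.

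**Figure D2:**
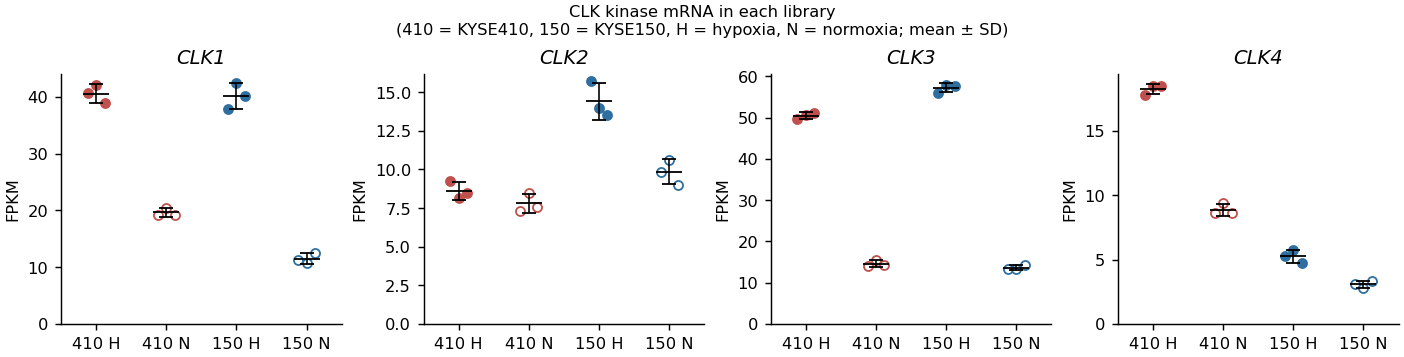
FPKM of CLK1 to CLK4 in each library (points), with the mean and SD of the 3 libraries of each group. CLK1, CLK3 and CLK4 are higher in every hypoxic library than in any normoxic library of the same line, and CLK2 overlaps in KYSE410.

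The order of the kinases changed with oxygen in KYSE410. CLK3 gave 42.8 ± 0.85% of the summed CLK FPKM in hypoxic KYSE410 (SD, n = 3) and 28.7 ± 0.17% in normoxic KYSE410, where CLK1 led with 38.6 ± 0.55%. In KYSE150 CLK3 led in both states, with 48.9 ± 0.74% in hypoxia and 35.8 ± 0.63% in normoxia. The 4 kinases summed to 117.9 ± 1.2 FPKM in hypoxic KYSE410 and 50.9 ± 2.6 FPKM in normoxic KYSE410. KYSE150 reached nearly the same hypoxic sum, 117.1 ± 2.7 FPKM, against 38.1 ± 0.97 FPKM in normoxia. Set against the SR protein genes, the kinases stood at 25.0, 24.9 and 23.7 FPKM per 100 FPKM of SRSF genes in hypoxic KYSE410 and at 8.39, 9.53 and 8.41 in normoxic KYSE410. The same ratio was 25.8, 27.4 and 26.4 in hypoxic KYSE150 and 5.73, 5.27 and 5.80 in normoxic KYSE150. These sums and ratios are given without a test.

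RefSeq promoter windows of the 3 kinases that rose in both lines are shown beside those of SRSF6 and SRSF7, which fell past 1 on the log2 scale in both, so that the letters of genes with opposite changes can be compared. Each is the 250 bases before the gene start that the RefSeq table uses in GRCh38.p14, read 5′ to 3′ on the gene's strand. Capitals mark ACGTG or GCGTG on either strand (CACGT or CACGC when read on the other), the letters of the core hypoxia response element. The windows are chr2:200864659-200864908 (minus strand) for CLK1, chr15:74608122-74608371 (plus) for CLK3, chr5:178627051-178627300 (minus) for CLK4, chr20:43457646-43457895 (plus) for SRSF6 and chr2:38751495-38751744 (minus) for SRSF7. GENCODE 29 sets the outermost start of CLK3 and of CLK4 farther upstream, so their windows lie inside the genes as it annotates them and precede an inner start. The CLK1 window runs into the first bases of its GENCODE gene, and those of SRSF6 and SRSF7 lie outside theirs.
CLK1: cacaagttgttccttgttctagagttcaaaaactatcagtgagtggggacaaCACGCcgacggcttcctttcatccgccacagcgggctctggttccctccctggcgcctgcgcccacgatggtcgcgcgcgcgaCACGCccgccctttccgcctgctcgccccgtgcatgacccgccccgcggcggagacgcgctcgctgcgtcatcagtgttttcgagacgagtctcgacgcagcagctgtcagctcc
CLK3: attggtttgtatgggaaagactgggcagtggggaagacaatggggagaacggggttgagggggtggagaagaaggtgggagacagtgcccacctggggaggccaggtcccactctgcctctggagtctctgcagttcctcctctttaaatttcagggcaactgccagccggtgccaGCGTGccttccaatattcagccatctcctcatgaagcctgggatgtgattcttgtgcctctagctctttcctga
CLK4: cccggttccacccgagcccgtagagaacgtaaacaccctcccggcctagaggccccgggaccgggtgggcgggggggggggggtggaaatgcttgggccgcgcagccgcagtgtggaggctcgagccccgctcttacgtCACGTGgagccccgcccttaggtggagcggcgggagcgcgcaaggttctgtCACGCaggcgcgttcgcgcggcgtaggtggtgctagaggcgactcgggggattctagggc
SRSF6: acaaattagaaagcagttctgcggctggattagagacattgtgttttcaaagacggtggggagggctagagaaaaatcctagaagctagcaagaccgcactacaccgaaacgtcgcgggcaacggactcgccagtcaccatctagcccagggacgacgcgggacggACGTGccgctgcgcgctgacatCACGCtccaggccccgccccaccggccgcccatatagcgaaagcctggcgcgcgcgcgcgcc
SRSF7: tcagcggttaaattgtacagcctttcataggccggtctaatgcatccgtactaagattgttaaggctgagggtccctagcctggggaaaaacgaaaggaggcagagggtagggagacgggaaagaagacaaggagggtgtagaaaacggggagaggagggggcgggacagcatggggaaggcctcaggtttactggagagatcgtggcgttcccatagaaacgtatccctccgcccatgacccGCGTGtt
These letters occurred 2 times in the window of CLK1, 1 time in that of CLK3 and 3 times in that of CLK4, where CACGTG holds 2 overlapping matches, one on each strand. They occurred 2 times in the window of SRSF6 and 1 time in that of SRSF7, so genes that rose and genes that fell both held them. Of the 36 members, 34 had a promoter in the RefSeq table and 27 of these held a match in the 250 bases: 4 of 4 CLK, 8 of 11 SRSF and 15 of 19 HNRNP promoters. The share over all 35116 promoters of the table was 43.2%, and 55.5% over the 14632 promoters of genes tested in either line. A match describes the letters only, and base composition, which such short motifs follow, was not matched between these sets.

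Of 11 tested SR protein genes, 8 fell and 3 rose in KYSE410, where 51.9% of all genes were lower and 31.2% higher. In KYSE150 8 fell and 1 rose, where 38.8% of all genes were lower and 23.5% higher. The share of rises in KYSE410 was near that of all genes. The genes lower in both lines were SRSF1, SRSF3, SRSF5, SRSF6, SRSF7, SRSF8 and SRSF10, though SRSF1 and SRSF3 lost their KYSE410 calls with the trend with transcript length removed. Their sum was 480.9 ± 12.3 FPKM in hypoxic KYSE410 and 580.8 ± 13.0 FPKM in normoxic KYSE410 (SD, n = 3), and 440.7 ± 3.9 FPKM in hypoxic KYSE150 and 680.9 ± 28.5 FPKM in normoxic KYSE150. SRSF7, which besides splicing serves as an adaptor for mRNA export, changed most in KYSE410. It had 25.5, 27.2 and 26.0 FPKM in hypoxic KYSE410, against 106.0, 98.9 and 110.6 FPKM in normoxic KYSE410, a ratio of 0.250 (-1.96 ± 0.05; limma, adjusted p = 8.39e-09). In KYSE150 it had 32.5, 28.7 and 31.1 FPKM in hypoxia and 70.1, 84.7 and 77.0 FPKM in normoxia, a ratio of 0.398 (-1.30 ± 0.09; limma, adjusted p = 1.59e-05). In normoxic KYSE410 it was the most abundant SR protein gene, at 18.1% of their sum, and in hypoxic KYSE410 it made up 5.46%.

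SRSF6, an SR protein with paired RNA recognition motifs, fell almost alike in both lines. It had 18.9, 17.8 and 17.7 FPKM in hypoxic KYSE410, against 44.2, 39.1 and 45.1 FPKM in normoxic KYSE410 (-1.19 ± 0.06; limma, adjusted p = 2.38e-07). KYSE150 had 19.4, 18.1 and 19.0 FPKM in hypoxia and 48.4, 46.2 and 51.3 FPKM in normoxia (-1.32 ± 0.07; limma, adjusted p = 4.90e-06). The difference between these changes, 0.13 ± 0.09, did not pass the interaction test (limma, adjusted p = 0.229), but did with the length trend removed (0.34; limma, adjusted p = 0.00328). SRSF5, from the same subfamily, had 43.2, 44.4 and 44.5 FPKM in hypoxic KYSE410 and 73.4, 67.4 and 75.3 FPKM in normoxic KYSE410 (-0.70 ± 0.05; limma, adjusted p = 1.24e-06). In KYSE150 SRSF5 had 72.7, 62.6 and 65.3 FPKM in hypoxia and 109.9, 117.0 and 105.8 FPKM in normoxia (-0.72 ± 0.08; limma, adjusted p = 1.74e-04). Its changes in the lines differed by 0.026 ± 0.09, which did not pass either (limma, adjusted p = 0.819), except with a common sum (-0.22; limma, adjusted p = 0.0309).

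SRSF3, a small SR protein that shares the export role of SRSF7, fell in both lines but by unequal amounts. It had 36.8, 40.6 and 42.1 FPKM in hypoxic KYSE410 and 53.8, 49.9 and 53.4 FPKM in normoxic KYSE410 (-0.39 ± 0.05; limma, adjusted p = 1.82e-04), a call lost at -0.076 with the trend with transcript length removed (limma, adjusted p = 0.239). In KYSE150 SRSF3 had 32.4, 36.1 and 34.96 FPKM in hypoxia, against 87.3, 102.9 and 87.8 FPKM in normoxia (-1.40 ± 0.09; limma, adjusted p = 1.05e-05). The hypoxic levels of the lines were near each other, whereas the normoxic level was higher in KYSE150, and the responses differed by 1.01 ± 0.11 (limma interaction, adjusted p = 7.68e-06). SRSF8, a paralogue of SRSF2 and the least abundant tested member of the family, had 4.14, 4.13 and 5.29 FPKM in hypoxic KYSE410 and 8.81, 8.83 and 8.94 FPKM in normoxic KYSE410. In hypoxic KYSE150 SRSF8 had 4.05, 4.04 and 4.62 FPKM, against 11.3, 12.6 and 11.5 FPKM in normoxic KYSE150. These were changes of -0.84 ± 0.08 in KYSE410 and -1.29 ± 0.09 in KYSE150 (limma, adjusted p = 1.71e-05 and 1.29e-05). SRSF10, which turns into a splicing repressor when dephosphorylated, had 16.4, 17.4 and 17.1 FPKM in hypoxic KYSE410 and 24.0, 25.4 and 22.8 FPKM in normoxic KYSE410 (-0.48 ± 0.05; limma, adjusted p = 2.10e-05). It had 22.5, 23.7 and 24.6 FPKM in hypoxic KYSE150 and 49.1, 42.9 and 51.97 FPKM in normoxic KYSE150 (-0.99 ± 0.09; limma, adjusted p = 5.01e-05). SRSF1, the founding SR protein and a known proto-oncogene, fell by 0.31 in KYSE410 (-0.089 with the length trend removed; limma, adjusted p = 0.0626) and by 0.55 in KYSE150. Its level was 42.0, 44.0 and 42.6 FPKM in hypoxic KYSE410 against 51.4, 54.9 and 54.3 FPKM in normoxic KYSE410, and 36.8, 36.7 and 36.4 FPKM in hypoxic KYSE150 against 54.997, 50.6 and 57.1 FPKM in normoxic KYSE150.

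**Figure D3:**
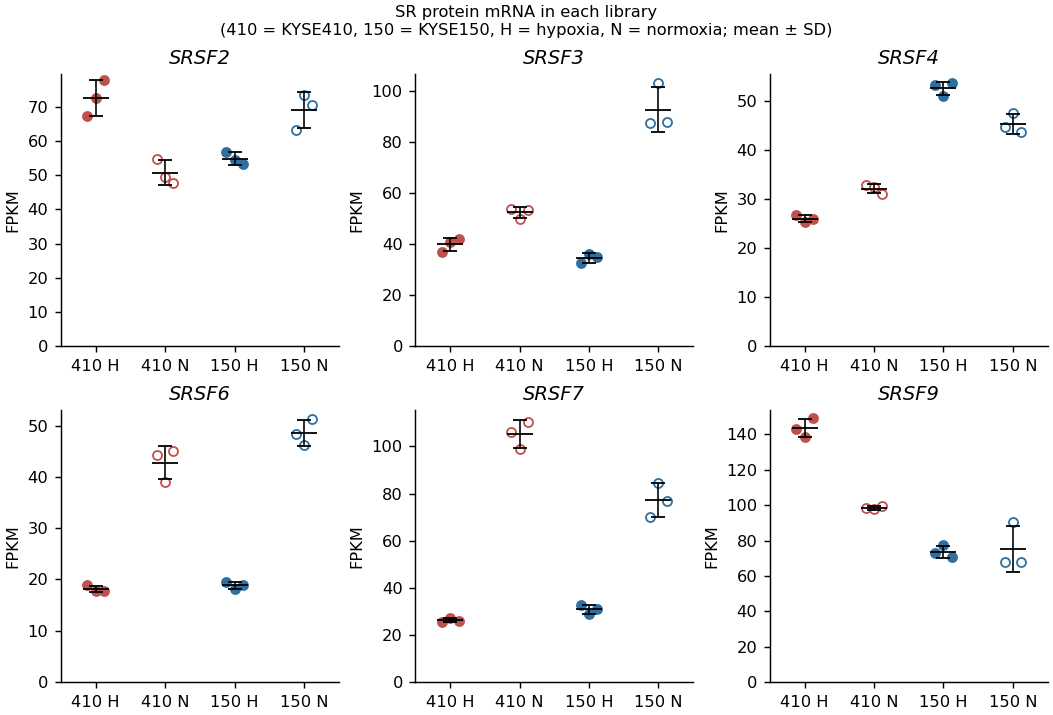
FPKM of SRSF2, SRSF3, SRSF4, SRSF6, SRSF7 and SRSF9 in each library (points), with the mean and SD of each group. SRSF6 and SRSF7 are lower in every hypoxic library of both lines, while SRSF9 is higher in every hypoxic KYSE410 library and overlaps in KYSE150.

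SRSF2, SRSF4, SRSF9 and SRSF11 did not follow that course. SRSF2, a nuclear-retained SR protein that marks speckles, went opposite ways in the lines. It had 67.3, 72.6 and 78.0 FPKM in hypoxic KYSE410, against 54.8, 49.5 and 47.8 FPKM in normoxic KYSE410 (0.51 ± 0.07; limma, adjusted p = 1.04e-04). In KYSE150 SRSF2 had 56.9, 54.5 and 53.2 FPKM in hypoxia and 63.2, 73.5 and 70.7 FPKM in normoxia (-0.33 ± 0.08; limma, adjusted p = 0.00794). The responses differed by 0.84 ± 0.11 (limma interaction, adjusted p = 3.31e-05). The KYSE150 call was lost with median-of-ratios scaling (limma, adjusted p = 0.156). SRSF2 overlaps MFSD11 on the opposite strand, and whether counting used strand is not given in the sources used here. Opposite-strand neighbours are also annotated for SRSF9 (GATC), HNRNPAB (PHYKPL) and HNRNPH3 (PBLD and RUFY2), among other members. SRSF9, the paralogue most like SRSF1, had 143.1, 138.8 and 149.3 FPKM in hypoxic KYSE410 and 98.2, 97.6 and 99.7 FPKM in normoxic KYSE410 (0.54 ± 0.03; limma, adjusted p = 1.15e-06). It made up 29.9 ± 0.79% of the SRSF sum in hypoxic KYSE410 and 17.0 ± 0.26% in normoxic KYSE410. In KYSE150 its groups overlapped, with 73.0, 77.2 and 70.7 FPKM in hypoxia and 67.7, 90.5 and 67.8 FPKM in normoxia (-0.019 ± 0.12; limma, adjusted p = 0.899). The high normoxic value was that of replicate 2, the library that stood apart, and without it SRSF9 was called higher, by 0.12 (limma, adjusted p = 0.0438).

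SRSF4, which carries the longest arginine-serine domain among the classical SR proteins, had 26.7, 25.3 and 26.0 FPKM in hypoxic KYSE410 and 32.8, 32.5 and 31.1 FPKM in normoxic KYSE410. Its change there, -0.29 ± 0.04 (limma, adjusted p = 1.25e-04), turned to 0.19 once the trend with transcript length was removed. In KYSE150 SRSF4 had 53.3, 51.1 and 53.6 FPKM in hypoxia and 44.6, 47.6 and 43.8 FPKM in normoxia (0.21 ± 0.07; limma, adjusted p = 0.0262), which was lost when any library other than normoxia replicate 2 was left out (limma, adjusted p up to 0.101). SRSF11 had 45.6, 46.6 and 45.6 FPKM in hypoxic KYSE410 and 39.6, 41.9 and 40.7 FPKM in normoxic KYSE410 (0.17 ± 0.03; limma, adjusted p = 0.00174), with a change of -0.068 under scaling to a common sum. In KYSE150 SRSF11 had 41.5, 44.7 and 45.9 FPKM in hypoxia and 48.7, 43.1 and 51.03 FPKM in normoxia, which did not pass (-0.11 ± 0.09; limma, adjusted p = 0.301).

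The hnRNP genes did not move as a block. Of 20, 5 rose and 12 fell in KYSE410, near the 31.2% higher and 51.9% lower of all genes. In KYSE150 8 rose and 6 fell, where 23.5% of all genes were higher and 38.8% lower. With median-of-ratios scaling the KYSE410 split was 7 higher and 7 lower, so the balance in that line depends on the scaling. HNRNPA1, which binds exonic and intronic silencers and competes with SRSF1 for splice-site choice, rose most in both lines. It had 495.7, 501.1 and 499.0 FPKM in hypoxic KYSE410 and 207.0, 198.7 and 210.0 FPKM in normoxic KYSE410, a ratio of 2.43 (1.28 ± 0.03; limma, adjusted p = 8.07e-09). In KYSE150 it had 685.0, 693.9 and 700.5 FPKM in hypoxia and 287.1, 329.6 and 284.2 FPKM in normoxia, a ratio of 2.31 (1.21 ± 0.09; limma, adjusted p = 2.24e-05). HNRNPA1 made up 23.6 ± 0.06% of the hnRNP sum in hypoxic KYSE410 and 9.90 ± 0.30% in normoxic KYSE410, and 26.0 ± 0.20% in hypoxic KYSE150 and 12.3 ± 0.77% in normoxic KYSE150. Its changes in the lines differed by 0.070 ± 0.09, which did not pass the interaction test (limma, adjusted p = 0.504). It passed, in unlike directions, with a common sum (-0.18; limma, adjusted p = 0.00952), with quantile normalization (-0.47; limma, adjusted p = 6.77e-05) and with the length trend removed (0.26; limma, adjusted p = 0.0182). GENCODE names 75 pseudogenes of HNRNPA1, so its level is uncertain where counting could split reads among copies. The summed hnRNP level was 2112 ± 14.7 FPKM in hypoxic KYSE410 and 2074 ± 8.5 FPKM in normoxic KYSE410, and 2663 ± 14.4 FPKM in hypoxic KYSE150 and 2431 ± 75.5 FPKM in normoxic KYSE150.

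The relatives of HNRNPA1 changed by smaller amounts or in the other direction. HNRNPA2B1, its nearest abundant paralogue, had 284.7, 290.1 and 282.7 FPKM in hypoxic KYSE410 and 275.5, 247.7 and 248.1 FPKM in normoxic KYSE410 (0.15 ± 0.04; limma, adjusted p = 0.0112), which turned to -0.088 with scaling to a common sum and to -0.47 with quantile normalization. In KYSE150 it rose, with 304.6, 329.2 and 318.2 FPKM in hypoxia and 229.7, 252.8 and 265.8 FPKM in normoxia (0.35 ± 0.09; limma, adjusted p = 0.00842). HNRNPA3, for which GENCODE names 16 pseudogenes, fell in KYSE410 and rose in KYSE150. It had 96.5, 105.8 and 96.7 FPKM in hypoxic KYSE410 and 118.7, 132.0 and 114.1 FPKM in normoxic KYSE410 (-0.28 ± 0.06; limma, adjusted p = 0.00215), a fall that became 0.11 with the length trend removed. KYSE150 had 63.5, 66.8 and 71.2 FPKM in hypoxia and 45.9, 51.3 and 50.3 FPKM in normoxia (0.44 ± 0.08; limma, adjusted p = 0.00165). HNRNPA0, a member encoded by a gene without introns, fell by 0.55 in KYSE410, where it had 9.50 ± 0.66 FPKM in hypoxia and 14.3 ± 0.23 FPKM in normoxia. With the length trend removed that change was -0.048 and was not called (limma, adjusted p = 0.432). In KYSE150 it fell by 0.70, with 14.6 ± 0.52 FPKM in hypoxia and 24.4 ± 1.92 FPKM in normoxia. HNRNPAB, which binds single-stranded nucleic acid and belongs with HNRNPD and HNRNPDL, had, with SRSF7, the deepest fall of any member in KYSE410. It had 52.003, 48.7 and 52.6 FPKM in hypoxic KYSE410 and 206.5, 202.7 and 203.4 FPKM in normoxic KYSE410, a ratio of 0.250 (-1.98 ± 0.04; limma, adjusted p = 3.03e-09). In KYSE150 the fall was smaller, with 74.4, 71.1 and 68.5 FPKM in hypoxia and 107.4, 124.6 and 109.5 FPKM in normoxia (-0.66 ± 0.08; limma, adjusted p = 2.61e-04). The responses differed by 1.31 ± 0.09 in size (limma interaction, adjusted p = 2.29e-07).

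**Figure D4:**
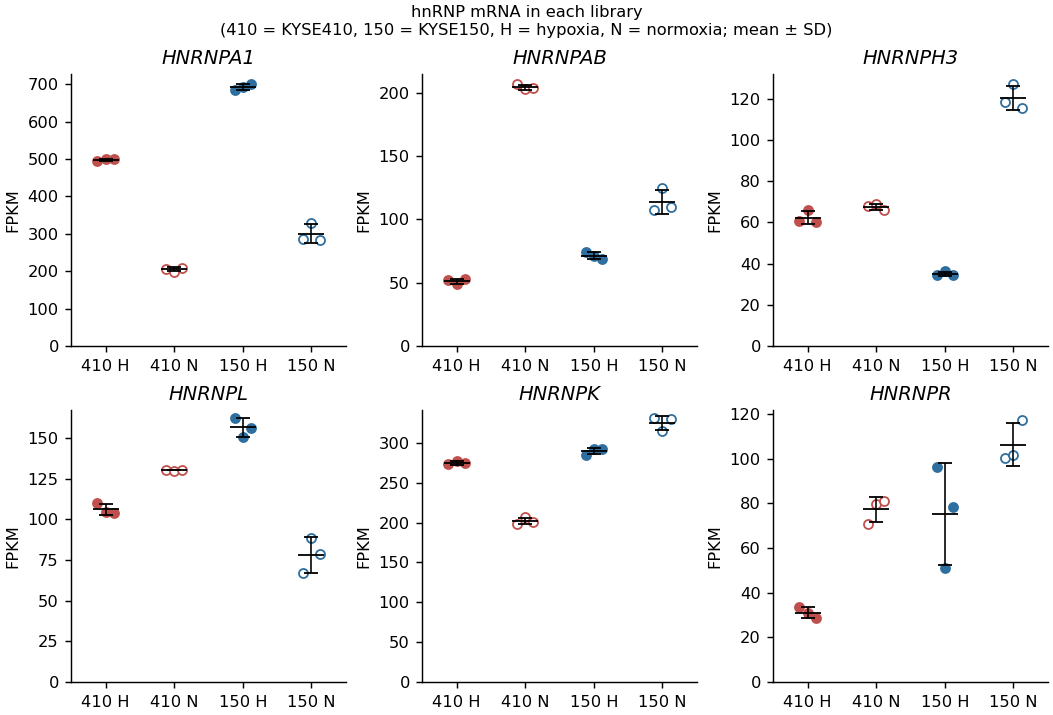
FPKM of HNRNPA1, HNRNPAB, HNRNPH3, HNRNPL, HNRNPK and HNRNPR in each library (points), with the mean and SD of each group. HNRNPA1 has at least 495.7 FPKM in every hypoxic library and at most 329.6 in every normoxic one, and HNRNPAB, HNRNPH3 and HNRNPL show unlike changes in the lines.

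HNRNPD, also known as AUF1, which binds AU-rich elements of unstable mRNAs, had 43.8, 46.0 and 45.9 FPKM in hypoxic KYSE410 and 73.4, 75.3 and 80.6 FPKM in normoxic KYSE410 (-0.74 ± 0.04; limma, adjusted p = 6.56e-07). Its KYSE150 change, -0.17 ± 0.07, did not pass (limma, adjusted p = 0.0707), at 79.4 ± 2.04 FPKM in hypoxia and 89.5 ± 4.93 FPKM in normoxia. HNRNPDL, its paralogue, rose in KYSE150 by 0.37 ± 0.07 (limma, adjusted p = 0.00315), with 54.1, 58.7 and 57.4 FPKM in hypoxia and 40.9, 46.3 and 43.6 FPKM in normoxia. In KYSE410 HNRNPDL had 38.5 ± 0.75 FPKM in hypoxia and 36.3 ± 1.01 FPKM in normoxia, which did not pass (0.084; limma, adjusted p = 0.0570). The HNRNPH and HNRNPF proteins, which bind runs of guanine, diverged between the lines. HNRNPH3 had 34.5, 36.2 and 34.5 FPKM in hypoxic KYSE150 and 118.5, 127.1 and 115.5 FPKM in normoxic KYSE150, a ratio of 0.292 (-1.75 ± 0.07; limma, adjusted p = 1.33e-06). In KYSE410 it had 60.7, 65.8 and 60.4 FPKM in hypoxia and 67.8, 68.8 and 66.1 FPKM in normoxia (-0.12 ± 0.04; limma, adjusted p = 0.0273), a small fall that turned to 0.091 with median-of-ratios scaling and to 0.13 with the length trend removed. This was the largest difference in response among the members, at 1.63 ± 0.08 (limma interaction, adjusted p = 1.57e-08). HNRNPF showed the opposite order. It had 58.98, 56.98 and 60.01 FPKM in hypoxic KYSE410 and 110.7, 111.6 and 111.0 FPKM in normoxic KYSE410 (-0.91 ± 0.03; limma, adjusted p = 3.84e-08). In KYSE150 HNRNPF had 168.7, 167.5 and 173.4 FPKM in hypoxia and 187.1, 195.8 and 190.6 FPKM in normoxia, which did not pass (-0.17 ± 0.07; limma, adjusted p = 0.0609).

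HNRNPH1 fell in KYSE150, with 104.2, 109.7 and 108.8 FPKM in hypoxia and 161.2, 162.6 and 162.2 FPKM in normoxia (-0.59 ± 0.07; limma, adjusted p = 1.64e-04). In KYSE410 its groups overlapped, at 129.9 ± 6.15 FPKM in hypoxia and 126.7 ± 4.73 FPKM in normoxia (0.035; limma, adjusted p = 0.477), and the call depended on scaling: it was higher with median-of-ratios scaling (0.24) and lower with a common sum (-0.21). HNRNPH2 had small changes of opposite sign, -0.15 in KYSE410 and 0.18 in KYSE150 (limma, adjusted p = 0.0116 and 0.0447), and the KYSE410 value turned to 0.055 with median-of-ratios scaling. HNRNPL, which binds CA repeats, rose in KYSE150, where it had 162.1, 150.8 and 156.3 FPKM in hypoxia and 66.8, 88.5 and 78.9 FPKM in normoxia, a ratio of 2.003 (1.00 ± 0.11; limma, adjusted p = 1.24e-04). In KYSE410 it fell, with 109.8, 104.5 and 103.9 FPKM in hypoxia and 130.4, 129.9 and 130.4 FPKM in normoxia (-0.29 ± 0.03; limma, adjusted p = 3.38e-05), though not past the threshold with median-of-ratios scaling (limma, adjusted p = 0.0582). The responses differed by 1.30 ± 0.12 in size (limma interaction, adjusted p = 2.14e-06). HNRNPL overlaps AC008982.1 and AC008982.2 on its own strand, so their reads could not be told apart at shared positions. HNRNPLL, the HNRNPL paralogue known for CD45 splicing in T cells, also rose in KYSE150, with 19.7, 21.8 and 21.8 FPKM in hypoxia and 10.2, 13.7 and 15.2 FPKM in normoxia (0.67 ± 0.14; limma, adjusted p = 0.00317). In KYSE410 HNRNPLL overlapped between groups, at 8.96 ± 0.94 FPKM in hypoxia and 9.89 ± 1.57 FPKM in normoxia (-0.12; limma, adjusted p = 0.333).

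HNRNPR, which is close to SYNCRIP, fell in KYSE410, with 33.6, 31.0 and 28.5 FPKM in hypoxia and 70.8, 79.8 and 81.2 FPKM in normoxia, a ratio of 0.402 (-1.29 ± 0.07; limma, adjusted p = 4.42e-07). In KYSE150 its hypoxic libraries were spread widely, at 96.4, 51.2 and 78.1 FPKM, against 100.02, 101.5 and 117.1 FPKM in normoxia. All were below the normoxic ones, and the change did not pass (-0.54 ± 0.21; limma, adjusted p = 0.0526), but leaving out hypoxia replicate 1 (limma, adjusted p = 0.0157) or normoxia replicate 2 (limma, adjusted p = 0.0487) brought it past the threshold. HNRNPK, which binds C-rich stretches through KH domains, had 273.0, 277.0 and 274.2 FPKM in hypoxic KYSE410 and 197.9, 206.6 and 201.3 FPKM in normoxic KYSE410 (0.44 ± 0.03; limma, adjusted p = 1.27e-06), with a change of -0.028 under quantile normalization. In KYSE150 it had 289.9 ± 3.99 FPKM in hypoxia and 325.1 ± 8.79 FPKM in normoxia, which did not pass (-0.16; limma, adjusted p = 0.0819). HNRNPM rose by 0.53 ± 0.07 in KYSE410, at 58.8 ± 1.25 FPKM in hypoxia and 40.5 ± 3.96 FPKM in normoxia (limma, adjusted p = 8.03e-05), and its KYSE150 change of 0.16 did not pass (limma, adjusted p = 0.0849). In KYSE150 HNRNPM was called higher with median-of-ratios scaling (0.33), a common sum (0.17), quantile normalization (0.31) and the length trend removed (0.32). HNRNPUL1, related to HNRNPU, rose in both lines. It had 71.9 ± 1.07 FPKM in hypoxic KYSE410 and 45.6 ± 1.84 FPKM in normoxic KYSE410, and 80.1 ± 0.45 FPKM in hypoxic KYSE150 and 61.3 ± 6.26 FPKM in normoxic KYSE150 (0.65 and 0.39; limma, adjusted p = 6.69e-07 and 0.00561). HNRNPUL2 fell by 0.16 in KYSE410 (limma, adjusted p = 0.00233), which turned to 0.045 with median-of-ratios scaling, and had a change of 0.11 in KYSE150 that did not pass (limma, adjusted p = 0.166). In KYSE150 HNRNPUL2 was called higher with median-of-ratios scaling (0.28), quantile normalization (0.25) and the length trend removed (0.22), but not with a common sum (0.12).

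HNRNPC, which binds uridine tracts and keeps Alu-derived exons out of mRNA, had 154.9 ± 3.40 FPKM in hypoxic KYSE410 and 194.2 ± 5.53 FPKM in normoxic KYSE410 (-0.32 ± 0.03; limma, adjusted p = 2.36e-05). With the length trend removed the KYSE410 change was 0.0045. In KYSE150 HNRNPC had 157.2 ± 1.59 FPKM in hypoxia and 227.5 ± 13.3 FPKM in normoxia (-0.53 ± 0.08; limma, adjusted p = 5.33e-04). HNRNPU, a nuclear scaffold protein with the longest annotated transcript of the members at 13084 bases, had 55.7 ± 1.39 FPKM in hypoxic KYSE410 and 74.1 ± 2.67 FPKM in normoxic KYSE410 (-0.40 ± 0.04; limma, adjusted p = 1.34e-05), which turned to 0.15 with the length trend removed. In KYSE150 it had 106.0 ± 2.21 FPKM in hypoxia and 127.5 ± 5.93 FPKM in normoxia (-0.26 ± 0.07; limma, adjusted p = 0.0121). The KYSE150 call was lost with median-of-ratios scaling, quantile normalization and the length trend removed (limma, adjusted p = 0.315, 0.247 and 0.0548). Length is given beside these falls because changes in KYSE410 moved with it over all genes, with medians of 0.46 for genes of up to 1000 bases and -0.48 for genes over 6000. Across the 11256 genes with a length the Spearman correlation was -0.27, as a description of genes that share the same 6 libraries. In KYSE150 it was 0.064 across 11828 genes. The part of length in the results was not tested beyond the refit with the trend removed.

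Several of the smaller changes turned on a single library. Without KYSE150 normoxia replicate 2, the library that stood apart, SRSF11, HNRNPD, HNRNPF and HNRNPK were called lower in KYSE150 (-0.18, -0.12, -0.15 and -0.19; limma, adjusted p = 0.0172, 0.0169, 0.00326 and 5.55e-04). HNRNPM and HNRNPUL2 were then called higher (0.19 and 0.12; limma, adjusted p = 0.00215 and 0.0444), so that 10 hnRNP genes rose and 10 fell. HNRNPH2 lost its KYSE150 call without any 1 of the other 5 libraries (limma, adjusted p = 0.0678 to 0.162), and HNRNPU lost its own without hypoxia replicate 1 or 2 (0.0543 and 0.0541). In KYSE410, HNRNPH3 lost its call when 1 of 4 libraries was left out, namely hypoxia replicates 1 and 3 and normoxia replicates 1 and 2 (limma, adjusted p = 0.0580 to 0.0889). CLK2 and HNRNPDL were called higher in KYSE410 without normoxia replicate 2 (0.18 and 0.11; limma, adjusted p = 0.0345 and 0.0332). HNRNPLL was called lower there without normoxia replicate 3 (-0.25; limma, adjusted p = 0.0235). The larger changes described above for CLK1, CLK3, CLK4, SRSF6, SRSF7, HNRNPA1 and HNRNPAB kept their calls with each library left out.

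Seen over both lines, 6 of the 35 members rose in both: CLK1, CLK3, CLK4, HNRNPA1, HNRNPA2B1 and HNRNPUL1. Of the 10951 genes tested in both lines, 13.8% did so. The members that fell in both numbered 12, and comprised 7 SR protein genes, HNRNPA0, HNRNPAB, HNRNPC, HNRNPH3 and HNRNPU, against a background of 29.4%. With the length trend removed, SRSF1, SRSF3, HNRNPA0 and HNRNPC lost their KYSE410 calls, and HNRNPH3 (0.13) and HNRNPU (0.15) turned there. SRSF2 was the single member higher in KYSE410 and lower in KYSE150 (background 4.94%). Its KYSE150 call was lost with median-of-ratios scaling (limma, adjusted p = 0.156). SRSF4, HNRNPA3, HNRNPH2 and HNRNPL were lower in KYSE410 and higher in KYSE150 (background 5.37%). All of these lost their KYSE410 calls with median-of-ratios scaling (limma, adjusted p = 0.0553 to 0.287). With the length trend removed SRSF4 was called higher in KYSE410 (0.19), and HNRNPA3, HNRNPH2 and HNRNPL were not called there. The other 12 were called in 1 line or in none (background 46.4%). The counts stand beside these shares, and nothing particular to the members is read from them.

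The response itself differed between lines, by the interaction of line and oxygen, for 29 of 35 members, where 63.3% of all genes did. The KYSE410 change was above the KYSE150 change for 14 of them and below it for 15, against 27.3% and 36% of 12653 genes. Among SR protein genes 7 were above and 2 (SRSF4 and SRSF7) below. Among CLK genes CLK4 was above and the other 3 below. The hnRNP genes gave 6 above and 10 below. Some of these calls were lost with a common sum, quantile normalization or the length trend removed, as listed further below. Past 1 on the log2 scale were HNRNPH3 and SRSF3 above and HNRNPAB and HNRNPL below, where 5.53% and 8.04% of all genes were. HNRNPA0, HNRNPA1, HNRNPA2B1, HNRNPU, SRSF5 and SRSF6 did not pass the test, with differences between -0.19 and 0.15, and each of them passed it under at least 1 other scaling or with the length trend removed. Each line has a table of its own, and levels compared across lines hold only as far as FPKM is on 1 scale in both tables.

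**Figure D5:**
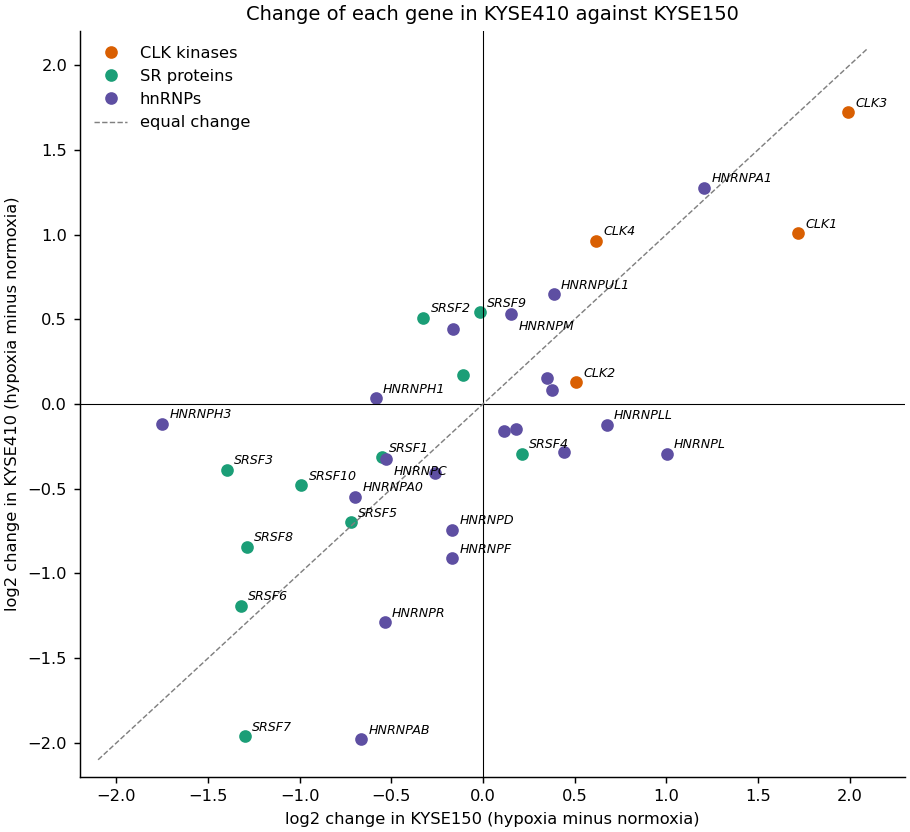
Log2 change (hypoxia minus normoxia) of each member in KYSE410 against that in KYSE150, coloured by group, with the line of equal change. CLK1, CLK3 and HNRNPA1 lie high in both lines, SRSF6 and SRSF7 low in both, and HNRNPAB, HNRNPH3 and HNRNPL lie farthest from equal change.

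Most members have annotated transcripts of a kind that the choice by symbol did not use. In GENCODE 29, 28 of the 36 (77.8%) have at least 1 transcript annotated as a target of nonsense-mediated decay, against 43.6% of the 11489 protein-coding genes that averaged 1 FPKM or more in either line. These are 12 of 12 SR protein genes, 13 of 20 hnRNP genes and 3 of 4 CLK genes. Transcripts with a retained intron are annotated for 72.2% of the members and 58.8% of those genes, and the median number of transcripts per gene is 11 in the members and 8 in those genes. The sets were not matched for number of transcripts or for level. SRSF7 (chr2:38743599-38751494, minus strand of hg38) has 12 annotated transcripts, of which 6 are decay targets and 4 protein-coding. CLK1 (chr2:200853009-200864744, minus strand) has 15, of which 8 retain an intron. The FPKM values are per gene, so a change in a productive transcript and one in a decay target or a retained intron cannot be told apart.

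Genes around the SR protein system were counted in the same fits. Of the kinases and related factors other than CLKs, 6 of 6 tested fell in KYSE410 and 2 of 6 in KYSE150, and none rose. Over all genes, 51.9% were lower in KYSE410 and 38.8% in KYSE150. With median-of-ratios scaling 3 of the 6 were lower in KYSE410, as SRPK2, PRPF4B and TNPO3 lost their calls (limma, adjusted p = 0.609, 0.711 and 0.469). With the length trend removed PRPF4B (0.23) and TNPO3 (0.097) were called higher there (limma, adjusted p = 8.38e-04 and 0.0377). In KYSE150 SRPK2 was called higher with median-of-ratios scaling (0.46), quantile normalization (0.41) and the length trend removed (0.42). SRPK1, which phosphorylates SR proteins in the cytoplasm for import, had 12.8 ± 0.77 FPKM in hypoxic KYSE410 and 23.9 ± 0.39 FPKM in normoxic KYSE410 (SD, n = 3; -0.85 ± 0.05; limma, adjusted p = 5.97e-07). In KYSE150 SRPK1 had 30.5 ± 1.45 FPKM in hypoxia and 45.1 ± 4.88 FPKM in normoxia (-0.54 ± 0.09; limma, adjusted p = 0.00144). DYRK1A, a kinase that also acts on splicing factors, fell by 1.17 in KYSE410 and by 0.78 in KYSE150. SRPK1 and the kinases CLK1, CLK3 and CLK4 thus moved in opposite directions in both lines.

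Of 20 SR-related proteins and other splicing activators, 1 rose and 15 fell in KYSE410 (5 and 9 with the length trend removed), and 4 rose and 9 fell in KYSE150. The shares over all genes, against which this list and those below are to be read, were 31.2% higher and 51.9% lower in KYSE410, and 23.5% higher and 38.8% lower in KYSE150. TRA2B, an SR-like activator that pairs with SR proteins on GAA-rich enhancers, had 17.5 ± 0.75 FPKM in hypoxic KYSE410 and 61.4 ± 3.25 FPKM in normoxic KYSE410 (-1.76 ± 0.05; limma, adjusted p = 1.46e-08). In KYSE150 TRA2B had 19.0 ± 1.54 FPKM in hypoxia and 101.5 ± 5.35 FPKM in normoxia (-2.36 ± 0.08; limma, adjusted p = 7.67e-07), a larger fall than that of any member. Its paralogue TRA2A fell by 1.71 in KYSE410, and THRAP3 fell by 1.49 in KYSE150. Of 16 other RNA-binding proteins of the hnRNP type, 4 rose and 9 fell in KYSE410 (9 rose with the length trend removed), and 5 rose and 5 fell in KYSE150 (8 rose with median-of-ratios scaling). These counts are near the shares over all genes. PTBP2 fell by 1.19 in KYSE410, and SYNCRIP fell by 0.91 in KYSE150.

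Of 35 core spliceosome genes, 17 rose (11 with a common sum) and 13 fell in KYSE410. In KYSE150 12 rose and 14 fell, where 6 fell with median-of-ratios scaling and 9 without hypoxia replicate 1 or 2. SF3A3 and SF3A1, subunits of the U2-associated SF3a complex, led in both lines. SF3A3 had 58.9 ± 0.19 FPKM in hypoxic KYSE410 and 15.0 ± 1.11 FPKM in normoxic KYSE410 (1.91 ± 0.05; limma, adjusted p = 1.19e-08), and rose by 1.45 in KYSE150. SF3A1 rose by 1.21 in KYSE410 and by 1.27 in KYSE150. Of 15 genes of nonsense-mediated decay and the exon junction complex, 1 rose (4 with the length trend removed) and 11 fell in KYSE410, and 3 rose and 6 fell in KYSE150. MAGOHB, a core subunit of the exon junction complex, fell by 1.14 in KYSE410 and by 1.33 in KYSE150. SMG5 fell by 1.14 in KYSE410, and MAGOH by 0.62 in KYSE150. The median log2 changes in KYSE410 were -0.51 for the kinases and related factors, -0.52 for the SR-related genes and -0.26 for the hnRNP-type genes. They were 0.055 for the core spliceosome and -0.52 for the decay genes. In KYSE150 they were -0.15, -0.15, 0.057, -0.20 and -0.082 in the same order, where all genes stood at -0.13.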

How the data were processed

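Per the labels' protocols, RNA was taken with TRIzol, captured on mRNA beads and made into libraries for sequencing. The submitters' processing notes name bcl2fastq 2.20, fastp 0.22.0, HISAT2 2.2.1 and the build hg38. Which quantifier, annotation and strand setting were used is not given in the sources used here. For each line the authors deposited 1 table, and its values were taken as FPKM: columns summed to 351501 to 425094, and FPKM times the longest transcript's length came to 0.899 to 1.00 times the total that this unit implies. No steps of whole reads were visible, since the commonest ratio between libraries held at most 0.481% of low genes. Depth is therefore unknown, and no counting interval is given.

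From these values, the 6 libraries of each line were fitted with limma 3.58.1 in R 4.3.3, on log2(FPKM + 1), with variances moderated along a trend with the mean, keeping genes that averaged 1 FPKM or more. A joint fit over 12 libraries gave the interaction. P-values were adjusted (Benjamini-Hochberg) over all genes tested. The fits were tested on simulated data. Positions, lengths and transcript classes came from GENCODE 29 and promoters from RefSeq. Python 3.11.15, pandas 2.3.3 and matplotlib 3.10.9 served for summaries and plots. The text names all members and, of each other list of splicing genes, hypoxia genes or markers, up to 2 called genes per line with the largest changes; the exceptions are markers and genes given as overlapping neighbours or at 0, and 1 gene that the rule takes is not reported here. The members and lists were chosen with earlier results of these data known. The alternatives were other scalings, filters, pseudocount and threshold, no mean trend, a refit without the transcript length trend, the replicate number as a block, and each library left out in turn.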

Additional observations from a re-analysis of the deposited data

Results flagged for a closer look

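A test of the difference itself, the interaction of line and oxygen in limma over 12653 genes, found that the KYSE410 change differed from the KYSE150 change for 29 of 35 members at an adjusted p under 0.05. Over all these genes, 63.3% passed the same test. Values are KYSE410 change minus KYSE150 change on the log2 scale. In the SR protein genes they were 0.24 for SRSF1, 0.84 for SRSF2, 1.01 for SRSF3, -0.50 for SRSF4, -0.66 for SRSF7, 0.44 for SRSF8, 0.56 for SRSF9, 0.51 for SRSF10 and 0.28 for SRSF11. In the kinases they were -0.71 for CLK1, -0.38 for CLK2, -0.27 for CLK3 and 0.34 for CLK4. In the hnRNP genes whose change was lower in KYSE410 they were -0.72 for HNRNPA3, -1.31 for HNRNPAB, -0.57 for HNRNPD, -0.29 for HNRNPDL, -0.74 for HNRNPF, -0.33 for HNRNPH2, -1.30 for HNRNPL, -0.80 for HNRNPLL, -0.75 for HNRNPR and -0.27 for HNRNPUL2. In the other hnRNP genes they were 0.20 for HNRNPC, 0.62 for HNRNPH1, 1.63 for HNRNPH3, 0.61 for HNRNPK, 0.38 for HNRNPM and 0.26 for HNRNPUL1. HNRNPC and HNRNPUL1 each lost the call when certain single libraries were left out, with an adjusted p of up to 0.0739 and 0.0731. With a common sum it was lost for SRSF1, SRSF8, SRSF10, SRSF11, HNRNPC, HNRNPM, HNRNPUL1 and CLK4 (limma, adjusted p = 0.0941 to 0.950). Quantile normalization lost it for SRSF1, SRSF9, SRSF11, HNRNPK, HNRNPM, HNRNPUL1 and CLK2 (limma, adjusted p = 0.0579 to 0.756). Removal of the length trend lost it for SRSF4, HNRNPDL, HNRNPR, HNRNPUL2 and CLK3 (limma, adjusted p = 0.0936 to 0.924). In KYSE410 the library sets of hypoxia and normoxia carry different sample-sheet numbers, so a difference between lines cannot be told apart from that split.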

How the results depend on the processing

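The call that CLK genes rose held in KYSE150 (4) and KYSE410 (3 or 4) under every scaling, filter, threshold and left-out library run, except that 1 kinase of KYSE150 is below a mean of 5 FPKM. With the length trend removed KYSE410 had 5 SR protein genes lower (8 as reported), 10 hnRNP genes higher (5) and 4 lower (12), and with median-of-ratios scaling 7 hnRNP genes lower. In KYSE150, 0 SR protein genes were higher (1) at an adjusted p under 0.01 and with the replicate block, and 0 to 2 with 1 library left out; 5 to 10 hnRNP genes were lower (6), the most without normoxia replicate 2. Members with a positive difference in response numbered 6 with common-sum scaling, 8 with quantile normalization and 9 at an adjusted p under 0.01 (14). A mean of at least 5 FPKM left 4007 genes lower in KYSE410 (6254), 3253 in KYSE150 (4925) and 2981 with a negative difference (4560). Over all KYSE410 genes the split was 3763 higher and 6254 lower, but 4862 and 5171 with median-of-ratios scaling, 2737 and 7550 with a common sum, 4925 and 4985 with quantile normalization, and 4660 and 4579 without the length trend. In KYSE150 it was 2981 and 4925, but 4017 and 3680 with median-of-ratios scaling, 3926 and 4049 with quantile normalization, and 4076 and 4021 without the length trend.

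Changes that turned in KYSE410 were, with the length trend removed, SRSF4 (0.19), HNRNPA3 (0.11), HNRNPC (0.0045), HNRNPH3 (0.13), HNRNPLL (0.19), HNRNPU (0.15) and HNRNPUL2 (0.21). With a common sum they were SRSF11 (-0.068), HNRNPA2B1 (-0.088), HNRNPDL (-0.15), HNRNPH1 (-0.21) and CLK2 (-0.088); with quantile normalization HNRNPA2B1 (-0.47), HNRNPH1 (-0.23), HNRNPK (-0.028) and HNRNPLL (0.19); with median-of-ratios scaling HNRNPH2 (0.055), HNRNPH3 (0.091), HNRNPLL (0.069) and HNRNPUL2 (0.045). In KYSE150, SRSF9 turned with median-of-ratios scaling (0.15), quantile normalization (0.13), no length trend (0.18), and without normoxia replicate 2 (0.12) or hypoxia replicate 3 (0.0091), and ranged over -0.088 to 0.12 with 1 library left out. SRSF11 turned with the first 3 of these (0.064, 0.0031 and 0.016), and HNRNPD (0.0041), HNRNPF (0.0050) and HNRNPK (0.010) with median-of-ratios scaling. The difference in response turned with a common sum for SRSF1 (-0.011), SRSF5 (-0.22), SRSF6 (-0.11), HNRNPA0 (-0.083), HNRNPA1 (-0.18) and HNRNPC (-0.048). It turned with quantile normalization for SRSF5 (-0.11), HNRNPA1 (-0.47) and HNRNPC (-0.28), and without the length trend for HNRNPA2B1 (0.16), HNRNPU (0.42), HNRNPUL2 (0.0091) and CLK3 (0.24). For SRSF5 it also turned without KYSE410 normoxia replicate 2 (-0.020), KYSE150 normoxia replicate 2 (-0.013) or KYSE150 hypoxia replicate 2 (-0.019), within a range of -0.020 to 0.087. The cause was not tested.

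Same-numbered libraries did not visibly deviate together (r = -0.045, -0.008 and 0.020 in KYSE410, -0.069, 0.084 and 0.051 in KYSE150). These correlations cannot settle whether the libraries were handled in pairs, and the main fits used no pairing. With the replicate block 8 SR protein genes were lower in each line, 12 hnRNP genes were lower in KYSE410 and 7 in KYSE150, and 4 CLK genes were higher in KYSE150. Unknown depth limits all values, most of all those under a few FPKM.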
